A study of Mus musculus with 4 samples.

Results

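Interferons are secreted proteins that warn cells of infection, and the genes considered here carry their signal and its main outputs. They comprise 39 genes of the interferon response and of antigen presentation, chosen by name: interferon regulatory factors, interferon receptors, RNA sensors, interferon-stimulated effectors, and the genes that load and display peptides on MHC class I and class II. Open chromatin at these genes was taken as every ATAC-seq peak that overlapped a gene span or the 10 kb on either side. Those peaks formed 192 of the 113056 merged regions of the study, with 1 to 24 regions at a gene (median 4), and 7 of the 192 lay within reach of more than 1 of the genes.

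ATAC-seq uses a transposase to insert sequencing adapters into accessible DNA. It was applied to lung endothelial cells of mice, isolated by FACS (cell sorting on fluorescent labels), in 2 Dnmt3a knockout (KO) libraries and 2 wild-type (WT) libraries. Dnmt3a encodes a de novo DNA methyltransferase, which adds methyl groups to cytosines, mostly at CpG dinucleotides, and the study asked how its loss shapes endothelial open chromatin. The labels give the genotype as ko or wt only, with no sex. The sources used here do not give how the gene was deleted, the strain, the age or whether replicate libraries came from separate mice. P-values over libraries therefore measured the spread between these libraries, which may be technical.

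Type I interferons signal through Ifnar1 and Ifnar2 and type II interferon through Ifngr1 and Ifngr2. Type I signals activate a complex with IRF9 that binds the interferon-stimulated response element (ISRE), and type II signals act on genes through the gamma-activated site (GAS). MHC class I is displayed by nearly all cells, while class II is best known from dendritic cells, macrophages and B cells and can also be displayed by lung endothelium. The transactivator CIITA drives class II genes and NLRC5 drives class I genes.

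The sequence at the gene starts is given first, for 5 genes whose 300-base promoter window holds a match to the ISRE core. Windows reach from 250 bases before to 50 bases after the annotated start and come from RefSeq (GRCm38.p6, the mm10 assembly). Of the 39 genes, 31 have an entry there, with 37 windows in all. The sequences below are written 5′ to 3′ along the gene, with ISRE core matches in capitals. Isg15, a ubiquitin-like modifier, lies on the minus strand at chr4:156200769-156201068. Ifit1 and Ifit3, which bind foreign RNA or assist in it, lie on the plus strand at chr19:34640639-34640938 and chr19:34583279-34583578. Gbp2, a guanylate-binding protein, lies on the plus strand at chr3:142620413-142620712, and B2m, the light chain of MHC class I, on the plus strand at chr2:122147437-122147736.
Isg15: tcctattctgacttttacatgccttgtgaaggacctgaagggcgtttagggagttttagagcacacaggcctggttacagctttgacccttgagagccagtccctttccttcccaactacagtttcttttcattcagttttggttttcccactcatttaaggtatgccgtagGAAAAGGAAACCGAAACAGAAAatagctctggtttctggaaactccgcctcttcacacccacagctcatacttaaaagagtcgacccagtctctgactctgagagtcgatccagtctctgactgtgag
Ifit1: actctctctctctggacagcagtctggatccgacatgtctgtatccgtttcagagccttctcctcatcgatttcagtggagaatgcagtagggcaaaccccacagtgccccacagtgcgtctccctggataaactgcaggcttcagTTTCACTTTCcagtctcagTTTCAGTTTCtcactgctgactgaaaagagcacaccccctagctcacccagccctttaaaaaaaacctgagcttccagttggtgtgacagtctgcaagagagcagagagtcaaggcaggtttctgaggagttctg
Ifit3: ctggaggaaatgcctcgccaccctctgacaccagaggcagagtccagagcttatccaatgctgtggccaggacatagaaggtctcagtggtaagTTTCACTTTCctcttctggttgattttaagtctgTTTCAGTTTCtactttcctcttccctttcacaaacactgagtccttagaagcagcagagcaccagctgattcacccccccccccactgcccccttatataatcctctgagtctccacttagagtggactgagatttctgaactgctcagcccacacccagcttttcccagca
Gbp2: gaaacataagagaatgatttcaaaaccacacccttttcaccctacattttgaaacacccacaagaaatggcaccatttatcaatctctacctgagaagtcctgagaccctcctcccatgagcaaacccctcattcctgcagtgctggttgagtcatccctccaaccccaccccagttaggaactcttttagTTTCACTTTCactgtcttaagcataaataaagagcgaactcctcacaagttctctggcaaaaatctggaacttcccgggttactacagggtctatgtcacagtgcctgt
B2m: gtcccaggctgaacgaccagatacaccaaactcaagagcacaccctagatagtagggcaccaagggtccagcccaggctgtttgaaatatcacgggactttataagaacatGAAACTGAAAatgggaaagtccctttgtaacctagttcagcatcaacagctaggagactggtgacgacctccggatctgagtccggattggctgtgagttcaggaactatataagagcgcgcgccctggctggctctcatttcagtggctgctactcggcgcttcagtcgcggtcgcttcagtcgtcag

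The ISRE core was searched on both strands as GAAA repeated after a gap of any 2 bases, so it appears as a TTTC pair where it lies on the other strand. Isg15 had 3 overlapping matches, the first beginning 78 bases before the start. Ifit1 and Ifit3 had 2 matches each, the first beginning 104 and 156 bases before the start. Gbp2 had 1 match beginning 59 bases before its start, and B2m had 1 beginning 139 bases before. A match was found in 12 of the 37 windows (32.4%), those of Irf2, Ddx58, Ifih1, Ifit1, Ifit3, Isg15, Oas1a, Rsad2, Bst2, Gbp2, Gbp3 and B2m, and in 1131 of all 32851 windows in the table (3.44%). The GAS motif, TTCNNNGAA, which is its own reverse complement, was found in 9 of the 37 windows (24.3%) and in 8.3% of all windows. CCAAT on either strand, the element bound by NF-Y and known from class II promoters, was in 18 of the 37 (48.6%) and in 37.4% of all windows.

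CpG dinucleotides, the sites that Dnmt3a can methylate, numbered 0 to 43 in a window, with a median of 11 over the 37 windows and 7 over all windows. Windows of the receptors had the highest median, 22, and those of the class II molecules the lowest, 1.5 over 2 windows. Windows of the effectors had 3.5. The first Irf1 window (plus strand, chr11:53769764-53770063) and the H2-Eb1 window (plus strand, chr17:34305617-34305916) show the contrast and are printed with CpG in capitals. Irf1, a transcription factor induced by interferon gamma, had 32 CpG, more than 90.5% of all windows. H2-Eb1, a class II beta chain, had 0.
Irf1: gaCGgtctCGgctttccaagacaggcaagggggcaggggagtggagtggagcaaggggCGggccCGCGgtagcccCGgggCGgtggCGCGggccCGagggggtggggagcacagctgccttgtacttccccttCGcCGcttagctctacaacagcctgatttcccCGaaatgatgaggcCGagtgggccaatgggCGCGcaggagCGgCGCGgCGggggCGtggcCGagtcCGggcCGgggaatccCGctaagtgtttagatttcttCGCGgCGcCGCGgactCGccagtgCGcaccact
H2-Eb1: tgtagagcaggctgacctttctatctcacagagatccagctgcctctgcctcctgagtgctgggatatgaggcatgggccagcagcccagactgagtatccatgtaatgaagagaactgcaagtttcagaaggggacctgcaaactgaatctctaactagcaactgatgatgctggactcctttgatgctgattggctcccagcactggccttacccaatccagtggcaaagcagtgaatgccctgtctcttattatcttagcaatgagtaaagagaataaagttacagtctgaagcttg

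Some facts of the whole series bear on what follows. The lists held 85091 and 100879 peaks in the KO libraries, against 101442 and 97627 in the WT libraries on chromosomes 1 to 19, X and Y. They give positions with no score or read count, so depth is unknown, and no depth-based interval can be given. KO replicate 1 had the shortest list and the widest peaks (median 467 bp, against 407 bp in KO replicate 2 and 431 and 443 bp in the WT libraries). KO replicate 2 had no peak at the ends of 5 Y-linked genes, against 4 of them in KO replicate 1 and 3 and 4 in the WT libraries. The labels give no sex, and whether the KO pair mixed the sexes was not tested. At Dnmt3a itself, 17 and 23 peaks were listed in the KO libraries and 20 to 22 in the WT libraries, so peak positions do not check the genotype labels. All 10 endothelial markers had a peak at the gene start in every library. Of the 5 pan-leukocyte genes, Ptprc and Cd53 had none in any library, while Coro1a and Cd52 had such a peak in every library. All 6 macrophage and monocyte markers had none in any. A peak at the start was listed for 4 of 6 dendritic cell markers and 1 of 5 B cell markers in every library. For T cell markers it was 2 and 3 of 5 in KO, against 3 and 3 in WT, and for pan-leukocyte markers 3 and 3 of 5 in KO, against 2 and 2 in WT. Epithelial markers had 3 and 4 of 5 in KO, against 4 and 4 in WT, and fibroblast and mural markers 2 and 3 of 5 in KO, against 3 and 3 in WT. Over all coding genes with a promoter entry, a start peak was listed for 62.9% and 64.9% in KO, against 65.3% and 65.0% in WT. The part of other cells in the results was not tested, and in such bulk samples fewer cells with an open site cannot be told apart from less opening per cell.

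Nearly every interferon and antigen presentation gene was open at its start in both genotypes. A peak lay within 1000 bp of the start, or of either gene end for the 8 genes with no promoter entry, at 37 of 39 genes in each KO library and at 37 of 39 in each WT library (difference 0, exact permutation p = 1, smallest possible 0.333). The 37 were the same genes in all 4 libraries. Among the 31 genes with a promoter entry the share was 96.8%, against 62.4% of all 17491 coding genes with one. The 2 genes without such a peak were Isg15 and Ciita, which are named because their number is small and not by a rule.

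Isg15 was the exception among effectors. None of the 300 bases of its promoter window, triple ISRE match included, was covered by a peak in any list. The nearest open region began 1727 bp before its start, inside the neighbouring gene Perm1, and was 1344 and 1424 bp wide in the KO libraries, against 1543 and 1296 bp in the WT libraries. On the other side a region at the start of Agrn, 2531 bp away, was 980 and 996 bp wide in KO, against 949 and 971 bp in WT. At the first region the genotypes overlapped. At the second both KO widths lay above both WT widths as listed, but the normalised widths overlapped (log2 difference 0.06, SE 0.10).

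At Oasl2, a gene related to oligoadenylate synthetases, the window was likewise uncovered in every list, but a peak began 118 bp from the start, inside the gene, and was 882 and 886 bp wide in KO, against 880 and 717 bp in WT. Both KO widths there lay above both WT widths as listed and overlapped them after normalisation. The second annotated Irf8 promoter was the third of the 37 windows with no covered base in any list. In all, 26 of the 37 windows were covered over their full length in all 4 lists. Coverage of all other windows was not counted, so these counts have no background.

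**Figure D1:**
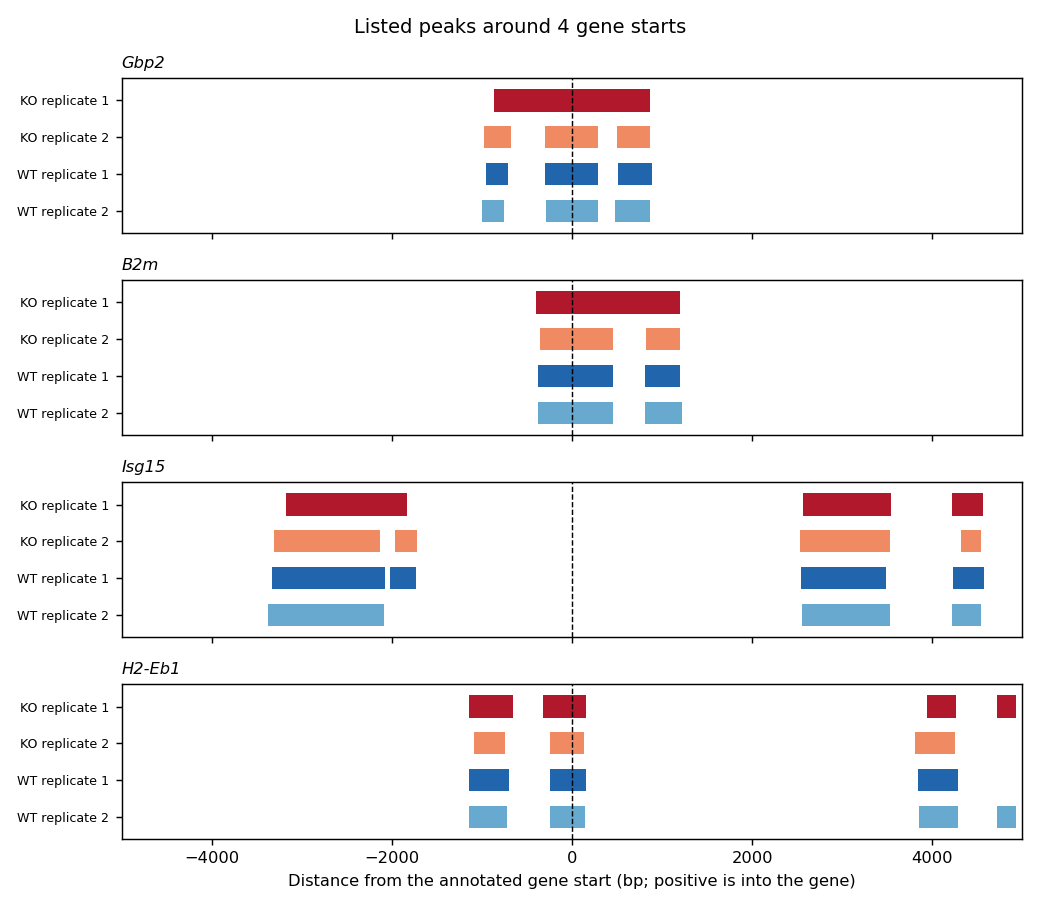
Listed peaks around the annotated start of Gbp2, B2m, Isg15 and H2-Eb1, drawn along the gene with the start at 0, one row per library (KO above WT). KO replicate 1 lists 1 peak where the other libraries list 3 at Gbp2 and 2 at B2m, no library has a peak at the Isg15 start, and all have one at H2-Eb1.

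Most regions at these genes were shared by all libraries. Of the 192 regions, 144 (75.0%) were called in all 4 lists, against 66.7% of all merged regions and 68.1% of regions at any coding gene or within 10 kb. At gene starts the share was higher for the 39 genes (42 of 46 regions, 91.3%) and for all coding genes alike (88.0%). In 66 regions elsewhere inside the genes, 48 (72.7%) were called in all 4 lists. The share of such regions inside all coding genes was not counted. A further 15 regions (7.81%) were called in 3 lists, against 11.1% of all merged regions and 10.7% at coding genes. In 10 of the 15, KO replicate 1 was the list without a peak, as it was for 68.6% of such regions genome-wide. The highest number of regions was at Irf2, a factor that opposes Irf1, with 24, of which 17 were in all 4 lists.

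Regions that followed genotype were few. Only 1 region (0.521%) was called in both KO lists and in neither WT list, a pattern held by 1.12% of all merged regions (1.11% at coding genes). It lay at chr16:10536511-10536726, inside the gene Dexi and 5447 bp beyond the end of Ciita, and its peaks were 201 and 208 bp wide, at or near the 201 bp floor of the lists. The opposite pattern, both WT lists and neither KO list, was held by 2 regions (1.04%), against 3.04% of all merged regions (2.68% at coding genes). With counts of 1 and 2, no difference from the background was read.

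The WT-pattern region with the wider peaks lay at chr2:62585794-62586188, 9430 bp beyond Ifih1, which encodes the RNA sensor MDA5. It was absent from both KO lists and 395 and 359 bp wide in the WT lists. The other lay inside Irf2, at chr8:46813153-46813421, absent from both KO lists and 206 and 211 bp wide in the WT lists, near the 201 bp floor. Whether it is exonic or intronic was not analysed here, since the gene table gives spans only. The counts moved with the libraries used: leaving out 1 library relaxes the pattern to the 3 lists that remain. There were then 9 KO-pattern and 5 WT-pattern regions without KO replicate 1, and 5 and 12 without KO replicate 2. Without WT replicate 1 they numbered 2 and 3, and without WT replicate 2 they numbered 2 and 8. Regions called by KO replicate 2 alone, which enter the KO pattern without KO replicate 1, were 4.17% here, against 4.56% of all merged regions. Regions missing only from KO replicate 1, which enter the WT pattern without KO replicate 2, were 5.21%, against 7.59%. Those called by WT replicate 1 alone were 3.12%, against 4.34%, and by KO replicate 1 alone 2.08%, against 1.92%.

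**Figure D2:**
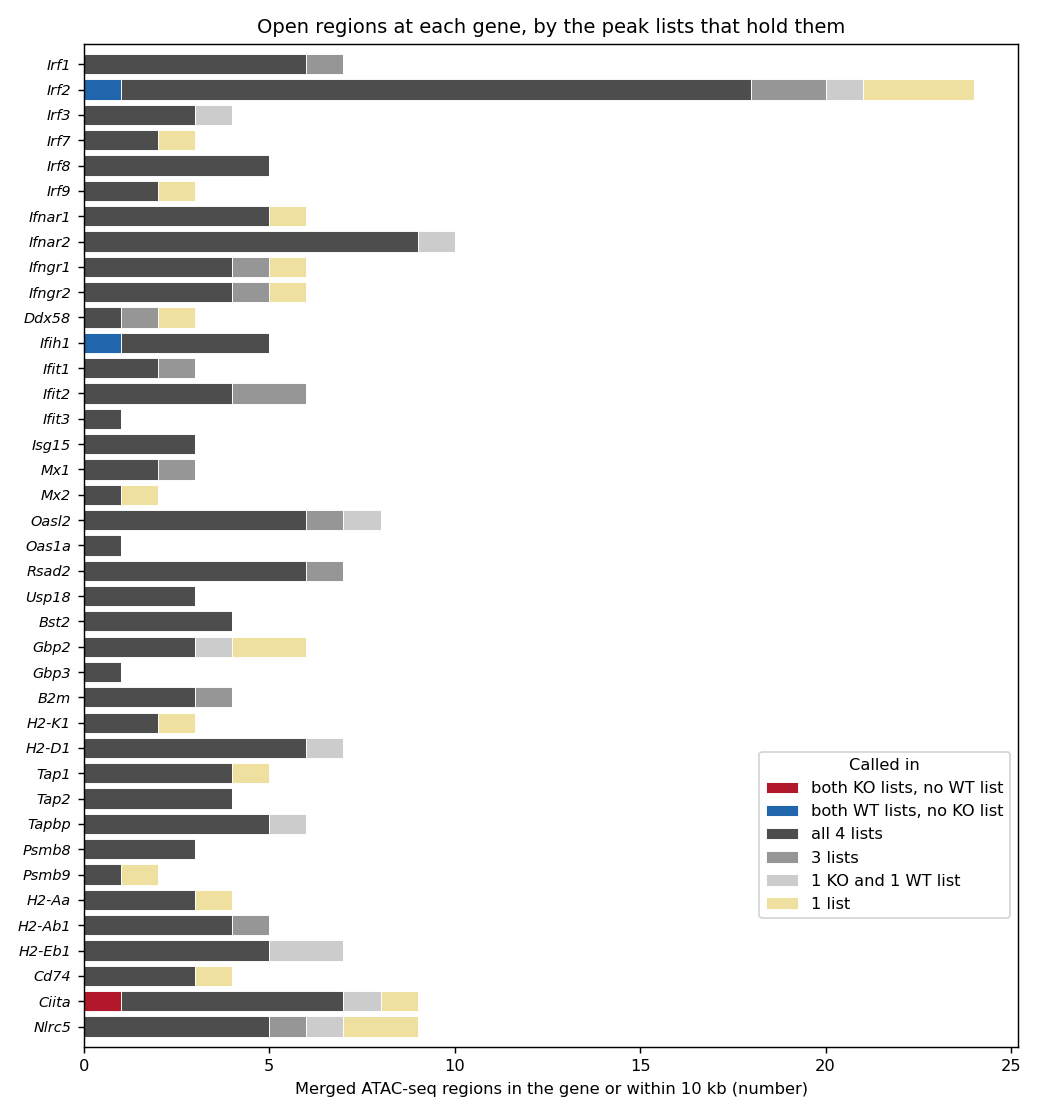
Number of merged regions in each gene or within 10 kb (horizontal axis), split by the lists that called them, with 39 genes down the page in order of role and the genotype patterns drawn first. Regions of all 4 lists make up most of the bar except at Ddx58, Mx2, Gbp2 and Psmb9, and coloured genotype patterns occur once each at Irf2, Ifih1 and Ciita. A region near several of the genes is drawn at each.

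By library, 157 and 186 peaks lay at the 39 genes in KO, against 179 and 170 in WT (means 171.5 ± 20.5 and 174.5 ± 6.36, SD, n = 2 each, two-sided exact permutation p = 1). The KO libraries lay outside the WT pair on both sides, and the sign of the difference turned to 11.5 more in KO without KO replicate 1 and 1.5 more without WT replicate 1. As a share of the list, those peaks were 0.185% and 0.184% in KO, against 0.176% and 0.174% in WT. Both KO shares lay above both WT shares (exact permutation p = 0.333, the smallest possible). Base pairs covered were 93762 and 90489 in KO, against 97805 and 96202 in WT. Both KO sums lay below both WT sums (exact permutation p = 0.333). The whole lists covered 46.6 and 47.8 Mb in KO, against 51.1 and 50.5 Mb in WT. Peaks at the genes covered 0.201% and 0.189% of the base pairs in the KO lists, against 0.191% and 0.191% in the WT lists (exact permutation p = 1). Without KO replicate 1 that difference, 0.00423 percentage points, turned to -0.00162.

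Widths at the 144 shared regions gave a measure beyond presence. Listed widths were summed over a library's peaks in a region, put on a log2 scale, quantile-normalised and compared over all 75395 regions of all 4 lists with limma. After Benjamini-Hochberg adjustment over all of them, 0 of the 144 regions differed between KO and WT, as did 0.0% of all regions (limma, smallest adjusted p at these genes 0.547). At an unadjusted p under 0.05 there were 7 of the 144 (4.86%), against 6.03% of all regions, with 3 wider in KO (background 2.85%) and 4 narrower (3.18%). The median log2 difference (KO minus WT) was 0.00 over the 144 regions and 0.01 over all regions, and 73 were positive and 71 negative. The 95% interval of a single region reached a median of 0.29 on either side on the log2 scale. The unadjusted count was 15 without KO replicate 1 (10.9% of all regions) and 24 without KO replicate 2 (18.4%). It was 2 without WT replicate 1 (2.9%) and 2 without WT replicate 2 (3.37%). Normalised widths of both KO libraries lay above both WT libraries in 20 of the 144 regions (13.9%, against 20.3% of all regions) and below them in 23 (16.0%, against 14.8%). As listed, they lay above in 7 (4.86%, against 7.37%) and below in 37 (25.7%, against 27.1%).

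**Figure D3:**
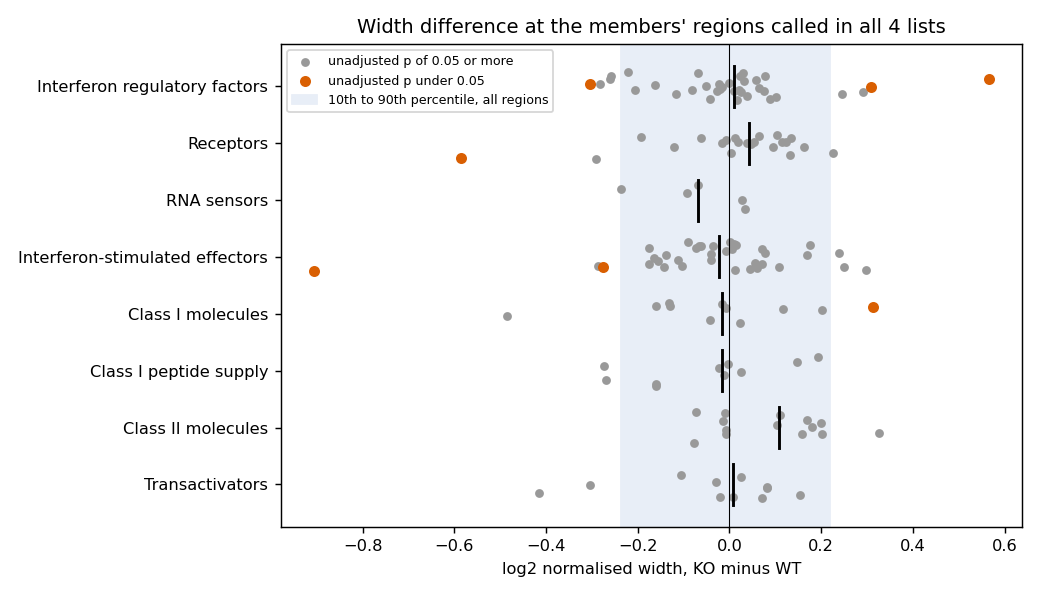
Difference in log2 normalised width, KO minus WT, at the 144 regions called in all 4 lists, by role of the gene (points, with black bars for the medians). The shaded band spans the 10th to 90th percentile of all 75395 regions, -0.24 to 0.22, and orange marks the 7 regions with an unadjusted limma p under 0.05, of which 0 passed adjustment.

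Among the interferon regulatory factors, all 6 genes had a start region in all 4 lists, and 35 of 46 regions were shared. Irf1 had widths of 1097 and 1091 bp in KO, against 1148 and 1149 bp in WT. Irf2 had 650 and 573 bp in KO, against 639 and 654 bp in WT. Irf3, which is activated by sensing of viral nucleic acid, had 1010 and 798 bp in KO, against 946 and 983 bp in WT. The start of another coding gene, Bcl2l12, also lay within 1000 bp of the Irf3 region. Listed widths of the KO libraries lay below both WT libraries at Irf1 but overlapped after normalisation. At Irf2 the listed widths overlapped and the normalised KO widths lay below both WT widths, and the log2 differences at these 3 starts were between -0.08 and -0.04 (limma SE 0.08 to 0.11).

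The remaining factors had start regions of like width. At Irf7, an amplifier of type I interferon production, they were 922 and 864 bp in KO, against 949 and 895 bp in WT. At Irf8, known for myeloid cell development, they were 862 and 938 bp in KO, against 896 and 927 bp in WT. Irf9, a DNA-binding subunit of the complex that binds the ISRE, had 881 and 824 bp in KO, against 842 and 856 bp in WT. Listed widths of the genotypes overlapped at all 3, while normalised widths of both KO libraries lay above both WT libraries at Irf9.

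Inside Irf2, 2 shared regions were wider in KO at an unadjusted p under 0.05. At chr8:46769543-46770286 the widths were 565 and 744 bp in KO, against 466 and 450 bp in WT (log2 difference 0.57, SE 0.19, limma adjusted p = 0.803). At chr8:46829367-46829844 they were 461 and 439 bp in KO, against 391 and 382 bp in WT (log2 difference 0.31, SE 0.08, limma adjusted p = 0.712). The KO widths lay above both WT widths in each region, as they did for 7.37% of all shared regions on the listed scale and 20.3% after normalisation, and the first difference was 0.79 without KO replicate 1 and 0.32 without KO replicate 2. In the opposite direction, a region at chr8:120739459-120740073, 1127 bp past the second annotated Irf8 start when measured from its centre, was 433 and 466 bp wide in KO, against 550 and 615 bp in WT (log2 difference -0.31, SE 0.11, limma adjusted p = 0.826). KO widths there lay below both WT widths, as at 27.1% of all shared regions on the listed scale and 14.8% after normalisation.

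The 4 receptor genes were open at their starts in every list, with 22 of 28 regions shared. Ifnar1 had widths of 876 and 743 bp in KO, against 748 and 781 bp in WT, with KO replicate 1 the highest. Ifnar2 had 1183 and 1068 bp in KO, against 1142 and 1151 bp in WT. Ifngr1 had 802 and 779 bp in KO, against 790 and 797 bp in WT. At the 3 starts the genotypes overlapped on the listed scale, while normalised KO widths lay above both WT widths at Ifnar1. Ifngr2 had 1196 and 1144 bp in KO, against 1198 and 1172 bp in WT.

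The smallest p among the 144 regions belonged to a region 1807 bp past the end of Ifngr1, at chr10:19612036-19612382, between coding genes. Its peaks were 201 and 209 bp wide in KO, at or near the 201 bp floor, and 340 and 327 bp in WT. Both KO widths lay below both WT widths, for a log2 difference of -0.59 (SE 0.08, limma unadjusted p = 0.00171, adjusted p = 0.547), and the difference was -0.60 to -0.56 without any 1 library.

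Of the RNA sensors, Ddx58, which encodes RIG-I, had one of the widest start regions, with 1526 and 1643 bp in KO, against 1559 and 1599 bp in WT, above 95.1% to 98.3% of the start regions of coding genes in each library. Ifih1 had 969 and 895 bp in KO, against 976 and 1003 bp in WT at its start (log2 difference -0.07, SE 0.08). The KO widths at Ifih1 lay below both WT widths by less than the interval of the difference.

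The 13 effector genes held 47 regions, of which 36 were shared, 6 were in 3 lists and 0 had a genotype pattern. Ifit1 had start widths of 649 and 518 bp in KO, against 581 and 568 bp in WT. Ifit2, of the same family, had 738 and 755 bp in KO, against 754 and 757 bp in WT. Ifit3 had 648 and 504 bp in KO, against 565 and 642 bp in WT. The start of another coding gene, Ifit1bl2, also lay within 1000 bp of the Ifit1 region. At Ifit1 and Ifit3, KO replicate 1 was the highest and KO replicate 2 the lowest of the 4 libraries, so the KO pair spanned the WT pair.

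At Mx1 the region at the high-coordinate gene end, chr16:97462529-97463184, was 201 and 370 bp wide in KO, against 614 and 479 bp in WT. The width in KO replicate 1 was at the 201 bp floor of the lists. KO widths lay below both WT widths, and the log2 difference of -0.91 (SE 0.33, limma adjusted p = 0.826) was the lowest of the 144 regions. It was -0.46 without KO replicate 1 and -1.34 without KO replicate 2. Mx1 and Mx2 encode antiviral GTPases, and the reference annotates both as transcribed pseudogenes. Mx2 had 1631 and 1355 bp in KO, against 1700 and 1677 bp in WT at its low-coordinate end, again with both KO widths below both WT widths.

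Oas1a, an RNA-sensing synthetase, had 492 and 330 bp in KO, against 452 and 466 bp in WT. Usp18, which removes Isg15 from proteins, had 877 and 581 bp in KO, against 625 and 606 bp in WT, at its low-coordinate gene end. Bst2, which tethers virus particles to the cell, had 762 and 620 bp in KO, against 746 and 762 bp in WT. At these 3 genes the listed widths overlapped, while normalised KO widths lay below both WT widths at Bst2.

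Rsad2 had 477 and 581 bp in KO, against 536 and 645 bp in WT at its start. A region at chr12:26433474-26434041, 8702 bp past the end of this antiviral gene, was 482 and 411 bp in KO, against 551 and 568 bp in WT (log2 difference -0.28, SE 0.10, limma adjusted p = 0.829).

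Gbp2 had the widest start region of KO replicate 1 among these genes. Its widths were 1734 and 1239 bp in KO, against 1206 and 1224 bp in WT (log2 difference 0.30, SE 0.15, limma adjusted p = 0.906). KO replicate 1 listed 1 peak there and the other 3 libraries listed 3 peaks each. The difference was 0.11 without KO replicate 1 and 0.48 without KO replicate 2, and with the widest peak of each library in place of the sum it was 0.82. Gbp3, of the same family, had 1395 and 1242 bp in KO, against 1361 and 1292 bp in WT, again as 1 peak in KO replicate 1 and 2 in each other library.

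Among the 3 class I molecules 11 of 14 regions were shared. B2m had start widths of 1600 and 1191 bp in KO, against 1217 and 1235 bp in WT, which overlapped as listed, while normalised KO widths lay above both WT widths. KO replicate 1 listed 1 peak and the others 2 each, and the log2 difference of 0.20 (SE 0.14, limma adjusted p = 0.922) was 0.04 without KO replicate 1, 0.36 without KO replicate 2 and 0.50 with the widest peak. H2-K1, a class I heavy chain, had 772 and 681 bp in KO, against 688 and 770 bp in WT. H2-D1, another heavy chain, had 761 and 679 bp in KO, against 720 and 753 bp in WT. Both heavy chain starts overlapped between genotypes. Class I, Ifit, Oas1 and Gbp genes have near-identical copies, and how reads of several origins were placed was not given in the sources used here, so their peaks are uncertain.

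Over all regions of 4 lists at the 39 genes, KO replicate 1 listed more than 1 peak in 0 and KO replicate 2 in 12, against 5 and 4 in the WT libraries. Over all 75395 regions the shares were 1.36% and 5.64% in KO, against 3.65% and 2.78% in WT. The part of this difference in how peaks were split in the widths was not tested.

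A pair of regions near the heavy chain genes differed in the sign of the difference. At chr17:33991759-33992423, beyond H2-K1, widths were 629 and 534 bp in KO, against 477 and 491 bp in WT (log2 difference 0.31, SE 0.09, limma adjusted p = 0.744). At chr17:35269683-35270325, beyond H2-D1, they were 359 and 509 bp in KO, against 636 and 640 bp in WT (log2 difference -0.48, SE 0.20, limma adjusted p = 0.859). The H2-D1 difference was -0.22 without KO replicate 1, -0.76 without KO replicate 2 and -0.90 with the widest peak, and in neither region did it pass adjustment.

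The 5 genes of class I peptide supply held 12 regions, 10 of them shared. Tap1, a subunit of the peptide transporter, and Psmb9, an immunoproteasome subunit, lie 225 bp apart and shared 1 start region of 1089 and 1190 bp in KO, against 1108 and 1228 bp in WT. Tap2, the other transporter subunit, had 742 and 606 bp in KO, against 707 and 968 bp in WT, at its low-coordinate gene end. Tapbp, which encodes the chaperone tapasin, had 547 and 409 bp in KO, against 467 and 421 bp in WT. Psmb8, another immunoproteasome subunit, had 1244 and 1122 bp in KO, against 1349 and 1339 bp in WT. At Psmb8 the KO widths lay below both WT widths (log2 difference -0.16, SE 0.08, limma adjusted p = 0.906). In the other regions of this group given here the genotypes overlapped.

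Class II genes had narrow open regions in all 4 lists. They lay at the start of H2-Aa and H2-Eb1. For H2-Ab1 and Cd74, which have no promoter entry, they lay at the low-coordinate gene end. H2-Aa, an alpha chain, had widths of 452 and 404 bp in KO, against 452 and 452 bp in WT. H2-Ab1, its beta chain partner, had 456 and 498 bp in KO, against 461 and 475 bp in WT. H2-Eb1, whose window holds 0 CpG, had 484 and 374 bp in KO, against 402 and 391 bp in WT. These widths lay at the 10.9th to 21.2nd percentile of start regions of coding genes. Cd74, the invariant chain, had 457 and 351 bp in KO, against 482 and 281 bp in WT. The genotypes overlapped at all 4 genes. The 14 shared regions of this group had a median log2 difference of 0.11, the highest of the groups. Of the 14, 8 were positive and 6 negative, with 0 regions at an unadjusted limma p under 0.05. Dendritic cell markers with a start peak numbered 4 of 6, B cell markers 1 of 5 and macrophage markers 0 of 6 in each library of both genotypes. The share of all coding genes with a promoter entry was 62.9% to 65.3% by library. Which cells held the open class II regions was not tested.

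The 2 transactivators held 18 regions, 11 of them shared. Nlrc5, which has no promoter entry, had widths of 861 and 681 bp in KO, against 709 and 777 bp in WT, at its low-coordinate gene end. A region inside it, at chr8:94443154-94443678, was 439 and 308 bp in KO, against 499 and 505 bp in WT (log2 difference -0.41, SE 0.20, limma adjusted p = 0.9). The size of that difference rested on KO replicate 2, since it was -0.63 without KO replicate 1 and -0.15 without KO replicate 2. Ciita, with no peak within 1000 bp of either gene end, had 6 regions in all 4 lists inside the gene. The nearest to an end, 2215 bp from it, was 627 and 569 bp wide in KO, against 578 and 587 bp in WT.

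**Figure D4:**
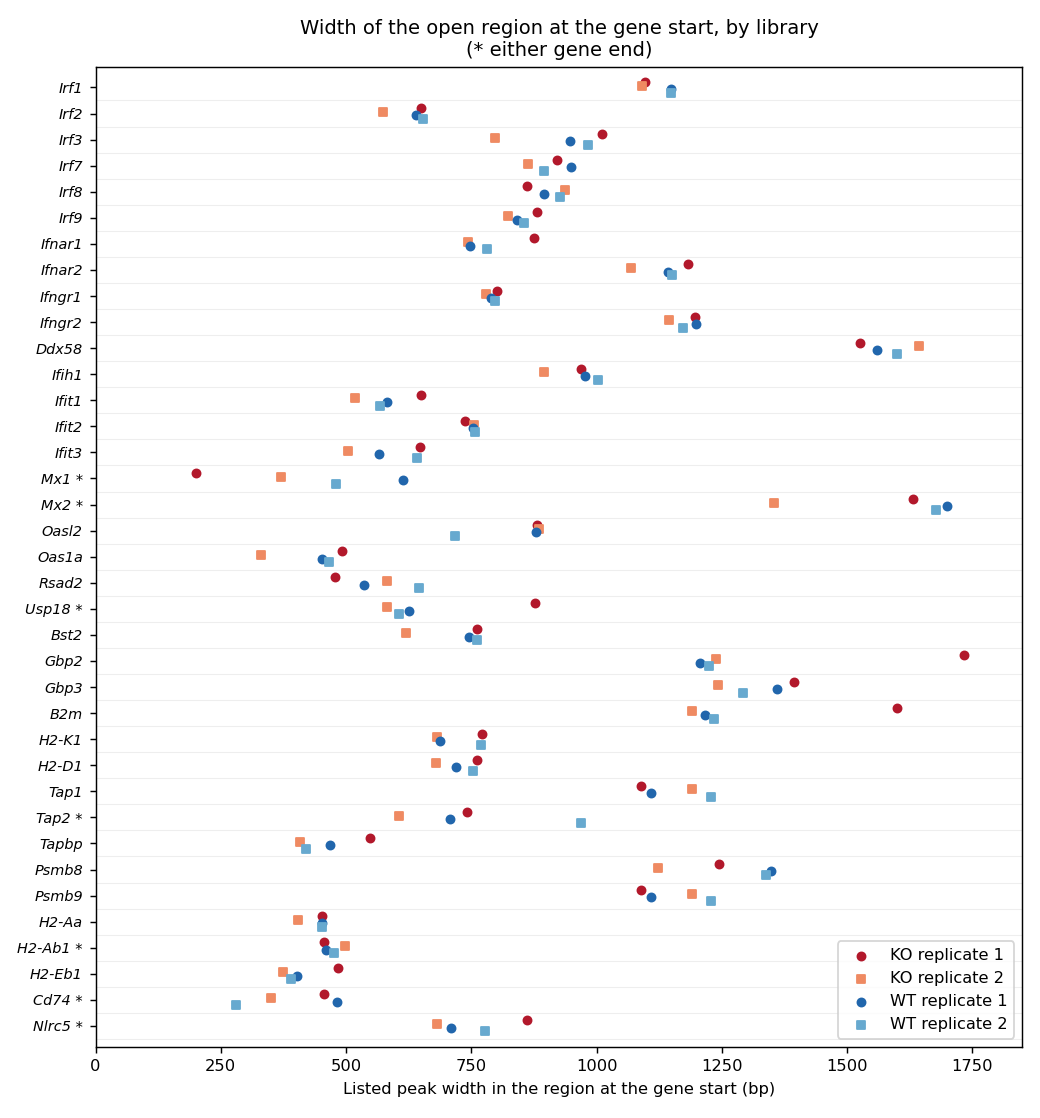
Listed peak width in bp of the region at the start of 37 genes (an asterisk marks genes where either gene end was used), with one point per library, KO in red and orange and WT in blue. Widths range from 201 bp at Mx1 to 1734 bp at Gbp2, both in KO replicate 1. The listed KO and WT widths overlap at 30 of the 37. Over all 75395 regions of all 4 lists, both listed KO widths lay above both WT widths in 7.37% and below them in 27.1%.

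A list of 66 other genes of the pathway was counted in the same way. They reached 290 regions that were not already counted, of which 218 (75.2%) were in all 4 lists, 1 had the KO pattern (1.12% of all merged regions) and 6 the WT pattern (3.04% of all merged regions). In width, 0 regions differed after adjustment with limma, while 4 were wider and 6 narrower in KO at an unadjusted p under 0.05, or 4.59% of those shared against 6.03% of all regions, and the median log2 difference was 0.02. A start peak was listed for 58 and 58 of the 66 genes in KO, against 60 and 60 in WT. Over all coding genes with a promoter entry the share was also lower in both KO libraries, at 62.9% and 64.9% in KO, against 65.3% and 65.0% in WT. The KO-pattern region lay inside Pdia3, a chaperone of class I loading, with peaks of 225 and 279 bp in KO. WT-pattern regions lay near Socs1, an inhibitor of cytokine signalling (459 and 255 bp in the WT lists), and inside Oas2, an RNA-sensing synthetase (292 and 224 bp in the WT lists). At Jak1, a kinase of the interferon receptors, the region at chr4:101172776-101173142 was 201 and 211 bp wide in KO, against 358 and 361 bp in WT (log2 difference -0.68, SE 0.08, limma adjusted p = 0.537). The KO widths there were at or near the 201 bp floor.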

How the data were processed

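Peak lists from 2 KO and 2 WT libraries, grouped by the sample titles, were the only data. Per the file headers, a deposited list holds the position and width of each peak. The value used, peak width in bp, has no listed score, fold, p-value or read count beside it, and the authors did not normalise it, as width equals end minus start plus 1. Bowtie2, cutadapt, Picard and the mm10 build appear in the submitters' processing notes, with no version and no stated use. Which program called the peaks, at what threshold, after which read filters and with or without a transposase shift is not given in the sources used here. A deeper library or looser threshold would list more narrow peaks, and a site missing from 1 list may still be accessible.

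The autosomes, X and Y were used, and overlapping peaks (1 bp or more) of different lists were merged. Gene spans came from RefSeq (GRCm38.p6), in which all 39 genes matched by symbol. Library values were compared by two-sided exact permutation tests, and widths with limma. The fit and merging were tested on simulated data.

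The genes and lists were chosen with earlier results of these data known. Named regions were those with a genotype pattern, those with an unadjusted p under 0.05, the first 3 genes of each role at the start, and the 5 largest and 5 smallest differences whose normalised widths did not overlap. The Irf7, Irf8, Irf9, Isg15, Oasl2, Mx2, Gbp3, Ifngr2, Psmb8, Cd74, Oas1a, Usp18, Bst2 and Rsad2 start regions and the Ciita region nearest a gene end were added after their values were seen. Alternatives covered overlap, interval, peak width, list length, normalisation, replicate block and leaving out each library. Python 3.11.15, numpy 2.4.6, pandas 2.3.3, matplotlib 3.10.9, R 4.3.3 and limma 3.58.1 were used. Values of some genes on the list of other pathway genes are not reported here.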

Additional observations from a re-analysis of the deposited data

How the results depend on the processing

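Requiring a longer overlap between peaks, or no peak of the other genotype within 500 bp, left 1 KO-pattern, 2 WT-pattern and 144 shared regions. With the gene span alone there were 0, 1 and 89, and with 50 kb either side 3, 6 and 340. With narrow peaks (under each list's own median width) left out there were 0, 6 and 80. None of the genotype-pattern regions described above kept its pattern under that cut. The widest peaks at equal list length gave 0 KO-pattern regions, with 2 WT-pattern and 136 shared. The Ifih1 region kept the WT pattern there, while the Irf2 region did not. Without each library the KO-pattern count was 2 to 9, the WT-pattern count 3 to 12 and the count in all remaining lists 145 to 158. Fewer lists are required there, and an interval change adds or removes regions by construction. For the other changes the cause was not tested. No setting gave a region past the adjusted limma threshold, with an unadjusted count of 4 in wider regions only, 4 in gene spans alone, 15 with 50 kb, and 2 to 24 without each library. The labels' replicate numbers name no shared mouse or batch, and deviations of same-numbered libraries correlated at -0.0449 over 75395 regions, so the numbers were not taken to pair them. A fit with a replicate block gave an unadjusted count of 4 of the 144 regions in place of 7. Over all regions the share was 5.83% in place of 6.03%. Adjusted calls were 0 with the block, as without it. The median log2 difference was -0.04674 without normalisation, where it was -0.04728 over all regions, and -0.02 to 0.01 without each library. The difference in covered share turned to -0.00136 percentage points with equal list length and -0.00137 with only wide peaks, and was -0.00162 to 0.0101 without each library. The difference in peak number was -17.5 to 11.5 without each library. With narrow peaks left out, genes with a start peak came to 33 and 32 in KO, against 37 and 35 in WT. The difference was -3.5 (exact permutation p = 0.333, the smallest possible). Narrow was set by each list's own median width, 467 and 407 bp in KO, against 431 and 443 bp in WT. The share of all coding genes under that cut was not counted, so this count has no background. Depth is unknown, so a region near the 201 bp floor may be listed or not by threshold alone.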
